A study of Homo sapiens with 12 samples.

Results

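Polycomb repressive complex 2 (PRC2) was followed through the transcripts of 10 of its core and accessory subunits, in 2 neuroblastoma cell lines treated with a METTL3 inhibitor. The members were the rows of the count files named EZH1, EZH2, EED, SUZ12, JARID2, RBBP4, RBBP7, PHF19, MTF2 and AEBP2, which are 10 of 19923 genes. All 10 were found under these symbols and all 10 passed the filter on low counts in each comparison. SK-N-BE2 and NGP are established human lines with amplified MYCN, labelled wild type. Both were grown in the same serum-containing medium and kept for 6 days with STM2457, a small molecule that blocks the RNA methyltransferase METTL3, or with its solvent DMSO. The dose was 12 µM for SK-N-BE2 and 1 µM for NGP. Polyadenylated RNA was sequenced from 12 libraries, 3 for each of the 4 groups.

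PRC2 places methyl groups on lysine 27 of histone H3, a mark of silenced developmental genes. EZH2 or its paralog EZH1 carries the catalytic SET domain, EED binds the finished mark and stimulates the enzyme, SUZ12 is the scaffold, and RBBP4 or RBBP7 is the histone-binding subunit. Accessory proteins define alternative forms: PHF19 and MTF2 are Polycomb-like proteins of the form called PRC2.1, and JARID2 and AEBP2 belong to PRC2.2. EZH2 has been described in neuroblastoma as a dependency of MYCN-amplified cells and as a repressor of differentiation genes.

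The libraries held 47242379 to 58159937 counted reads. The DMSO library of NGP named replicate 1 stood apart. Its chi-square per degree of freedom over genes was 97.0 against replicate 2 and 63.5 against replicate 3, while those 2 differed by 11.4 and all other pairs within groups by 2.83 to 43.1. Values of the NGP comparisons without this library are given beside those with it for the members and by list counts for the other genes, where 57.3% of 13776 genes were called in NGP in place of 41.7%. The labels do not say whether replicates came from separate cultures, so p-values measure only the spread between these samples. Of 8 adrenergic neuroblastoma markers, 7 exceeded a mean of 1 CPM (counts scaled to library size with TMM factors) in each group, and TH was near 0 in NGP (0.512 CPM with DMSO). Summed over 7 markers of the mesenchymal neuroblastoma state, the level in NGP lay between 59.0 and 78.1 CPM in controls and between 180 and 196 CPM in treated libraries, carried mostly by VIM, with TWIST2 at 0 reads. The same sum in SK-N-BE2 was 779 to 854 CPM and 692 to 750 CPM. The part of this shift in the subunits' values was not tested. The 3 haematopoietic markers summed to at most 2.17 CPM in any library and the 3 epithelial markers to at most 4.91 CPM, and the 3 endothelial markers summed to 9.75 to 20.3 CPM in SK-N-BE2 and to at most 3.27 CPM in NGP. In bulk RNA, fewer cells of a type and less RNA per cell cannot be told apart. METTL3, the target of the drug, whose protein rather than transcript is blocked, rose in SK-N-BE2 from 54.0 ± 3.26 to 79.5 ± 1.43 CPM (mean ± SD, n = 3) and likewise in NGP from 40.4 ± 3.59 to 77.7 ± 2.46 CPM (edgeR adjusted p = 0.000106 and 3e-04). A gain of METTL3 transcript does not check whether the enzyme was blocked. Per the file headers, the aligned reads of the 6 libraries of each line were kept in 1 folder, and the lines shared 0 folders. Whether a folder stands for a sequencing run was not checked. Line, dose and folder differ together, so they cannot be told apart in any comparison of the lines.

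With DMSO, most PRC2 subunits had lower transcript levels in SK-N-BE2 than in NGP. Of the 10 subunits 7 were lower in SK-N-BE2 at an adjusted p under 0.05 and 0 were higher, against 35.4% of 14731 genes tested called lower, 35.7% called higher and 71.1% called in either direction. The members' median log2 difference, SK-N-BE2 minus NGP, was -0.55, against 0.00388 over all genes. At an unadjusted p under 0.05, and by DESeq2, the counts were again 7 lower and 0 higher. The replicates of the lines did not overlap for 7 of the 10, against 68.9% of all genes. These 7 were not the 7 called: EED was called but overlapped, and AEBP2 was not called, with all SK-N-BE2 replicates higher.

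The catalytic subunit EZH2 (chromosome 7, 148807383 to 148884321, minus strand, GRCh38) was measured with DMSO at 36.5, 40.3 and 38.2 CPM in SK-N-BE2 and at 96.0, 94.4 and 93.3 CPM in NGP. All NGP libraries held more than 2 times the level of any SK-N-BE2 library, a log2 difference of -1.30 ± 0.08 (SE, adjusted p = 2.43e-09). The scaffold SUZ12 (chromosome 17, 31937007 to 32001038, plus strand) differed most, at 52.5, 52.3 and 44.05 CPM against 129, 176 and 172 CPM. Its groups lay far apart although NGP replicate 1 was low, with a log2 difference of -1.68 ± 0.12 (adjusted p = 1.21e-08). MTF2, which recruits the complex to CpG islands, was lower in SK-N-BE2 by a log2 difference of -0.95 ± 0.10 (adjusted p = 7.96e-07). The histone-binding subunits RBBP7 and RBBP4 were lower by -0.75 ± 0.09 and -0.63 ± 0.10 (adjusted p = 3.87e-06 and 3.4e-05), and EZH1 by -0.47 ± 0.08 (adjusted p = 0.000151). EED was called lower, at -0.43 ± 0.13 (adjusted p = 0.00814), but its replicates overlapped and the call was lost without SK-N-BE2 DMSO replicate 3 (-0.33, adjusted p = 0.0573). The remaining accessory subunits JARID2 (-0.13 ± 0.09), PHF19 (-0.11 ± 0.09) and AEBP2 (0.10 ± 0.08) did not pass the test, with adjusted p from 0.197 to 0.274. Without NGP DMSO replicate 1, JARID2 was called lower as well (-0.18, adjusted p = 0.0422), against 74.1% of 14943 genes called, and the values of EZH2, SUZ12, MTF2, RBBP7, RBBP4, EZH1 and EED were -1.27, -1.79, -1.04, -0.63, -0.72, -0.42 and -0.27, all called (EED with an adjusted p of 0.0451).

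**Figure D1:**
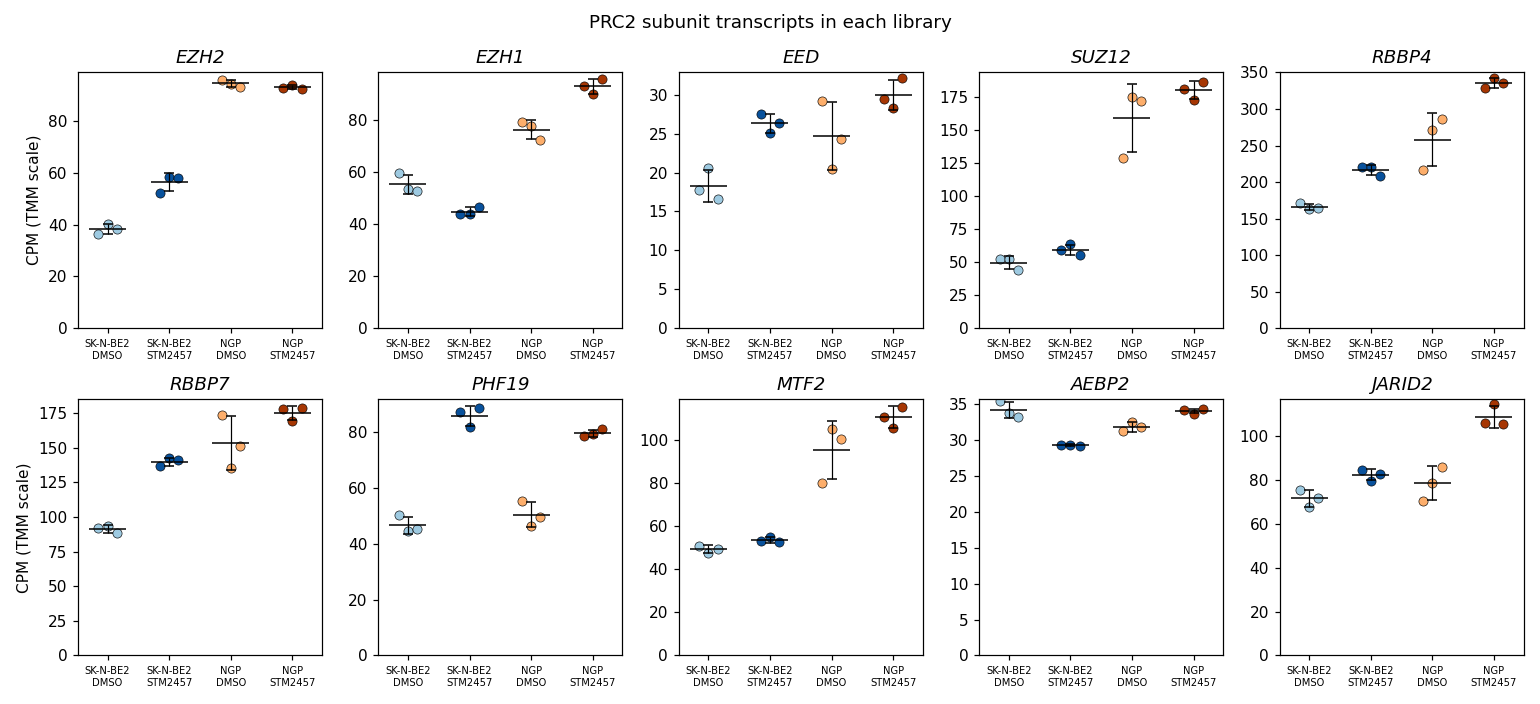
Level of each PRC2 subunit in each of the 12 libraries, in CPM on the TMM scale of all libraries, with a separate vertical axis from 0 for each gene. Points are replicates 1 to 3 from left to right, horizontal lines the group mean and bars 1 SD. SUZ12, EZH2 and MTF2 sit far higher in NGP than in SK-N-BE2, and the treated PHF19 values exceed all controls of their line.

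In SK-N-BE2, 12 µM STM2457 came with higher transcript levels of 5 PRC2 subunits, EZH2 among them, and lower EZH1. PHF19, RBBP7, EZH2, EED and RBBP4 rose, EZH1 and AEBP2 fell, and SUZ12, JARID2 and MTF2 did not pass the test. That is 5 of 10 higher and 2 of 10 lower, against 26.9% of 14013 genes called higher, 27.8% called lower and 54.7% called in either direction. The members' median log2 difference, STM2457 minus DMSO, was 0.281, against -0.0227 over all genes. For all 10 members the treated replicates lay beyond all the DMSO replicates, which held for 62.2% of all genes.

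PHF19 (chromosome 9, 120855651 to 120894896, minus strand), a Polycomb-like protein that reads the active mark H3K36me3 and brings PRC2 to chromatin, showed the largest change. It was measured at 50.1, 44.4 and 45.1 CPM with DMSO and at 86.9, 81.6 and 88.6 CPM with STM2457. The treated libraries were far above the controls, a log2 difference of 0.84 ± 0.08 or 1.79-fold (adjusted p = 2.52e-06). EZH2 went from 36.5, 40.3 and 38.2 CPM to 52.3, 58.4 and 58.2 CPM. The groups were separate, with a log2 difference of 0.52 ± 0.09 or 1.43-fold (adjusted p = 0.000246), and the treated level stayed below that of every NGP library. EZH1 (chromosome 17, 42700275 to 42745049, minus strand), the paralog that is known for its expression in resting cells, went the other way, from 59.7, 53.6 and 52.7 CPM to 44.1, 43.8 and 46.8 CPM. Its highest treated library was below its lowest control, with a log2 difference of -0.34 ± 0.09 (adjusted p = 0.00415).

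RBBP7 (chromosome X, 16839283 to 16870414, minus strand) was measured at 92.1, 93.7 and 88.0 CPM with DMSO and at 137, 142 and 141 CPM with STM2457. Both groups were tight and far apart, with a log2 difference of 0.58 ± 0.08 (adjusted p = 2.94e-05). Its paralog RBBP4 (chromosome 1, 32651142 to 32686211, plus strand) rose from 171, 164 and 164 CPM to 221, 221 and 209 CPM, a log2 difference of 0.34 ± 0.08 (adjusted p = 0.00177). EED (chromosome 11, 86244753 to 86278813, plus strand) was measured at 17.7, 20.5 and 16.6 CPM and, with STM2457, at 27.6, 25.1 and 26.3 CPM. It rose without overlap by 0.49 ± 0.11 on the log2 scale (adjusted p = 0.0015). RBBP4 shares 22.8% of its exon length with SYNC on the other strand and has 7 pseudogenes by name, so part of its reads may be lost or shared, and EZH2, EED and SUZ12 have 1 pseudogene each.

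AEBP2 (chromosome 12, 19404045 to 19720801, plus strand), a zinc finger protein that stabilises PRC2.2, moved from 35.4, 33.7 and 33.3 CPM to 29.3, 29.4 and 29.1 CPM. The treated replicates were nearly equal and all below the controls, and AEBP2 fell by 0.26 ± 0.08 on the log2 scale (adjusted p = 0.0188). This call was lost when STM2457 replicate 1, 2 or 3 was left out (adjusted p = 0.0637, 0.0541 and 0.0742). SUZ12 was at 58.9, 63.5 and 55.3 CPM with STM2457, a log2 difference of 0.22 ± 0.09 (adjusted p = 0.0657), and JARID2 (chromosome 6, 15246069 to 15522042, plus strand) went from 75.6, 67.5 and 71.7 CPM to 84.7, 79.6 and 82.7 CPM (0.16 ± 0.08, adjusted p = 0.0915). Their groups did not overlap, yet the differences were small. SUZ12 was called higher without DMSO replicate 1 or 2 (adjusted p = 0.0423 and 0.0391) and JARID2 without DMSO replicate 1 (adjusted p = 0.0395). MTF2 (chromosome 1, 93079235 to 93139079, plus strand) showed the smallest difference, 0.08 ± 0.08 (95% interval -0.09 to 0.25, adjusted p = 0.411).

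In NGP, 1 µM STM2457 came with higher PHF19, JARID2 and RBBP4, and EZH2 did not pass the test in either direction. That is 3 of 10 members higher and 0 lower by edgeR, against 19.4% of 13610 genes called higher, 22.2% called lower and 41.7% called in either direction. The members' median log2 difference was 0.222, against -0.0263 over all genes. With an unadjusted p under 0.05, 4 members were higher and 0 lower, and DESeq2 also called 4 higher and 0 lower. Replicates of the groups did not overlap for 6 of 10 members, against 54.7% of all genes.

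PHF19 went from 55.1, 46.5 and 49.4 CPM with DMSO to 78.4, 79.0 and 80.8 CPM with STM2457. As in SK-N-BE2, all treated libraries were above all controls, with a log2 difference of 0.63 ± 0.10 or 1.55-fold (adjusted p = 0.00152). JARID2, which links PRC2.2 to ubiquitinated H2A, went from 70.6, 78.5 and 86.1 CPM to 106, 115 and 105 CPM. The groups did not overlap and the log2 difference was 0.44 ± 0.11 (adjusted p = 0.0102). RBBP4 went from 217, 271 and 286 CPM to 329, 342 and 335 CPM, a log2 difference of 0.35 ± 0.12 (adjusted p = 0.0401). Its control replicate 1 was low, and the call was lost when STM2457 replicate 1, 2 or 3 was left out (adjusted p = 0.109, 0.0875 and 0.114).

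EZH2 in NGP was at 96.0, 94.4 and 93.3 CPM with DMSO and at 92.8, 94.0 and 92.5 CPM with STM2457. The 6 libraries overlapped, with a log2 difference of -0.05 ± 0.09 (95% interval -0.24 to 0.15, adjusted p = 0.687), so a rise of the size seen in SK-N-BE2 lies outside the interval. EZH1 was at 79.3, 77.7 and 72.3 CPM with DMSO and at 93.1, 90.1 and 96.0 CPM with STM2457, every treated library above the controls. Its log2 difference of 0.26 ± 0.09 missed the threshold (adjusted p = 0.0515), and 6 of 14 alternatives, DESeq2 among them, called it higher. EED (0.26 ± 0.14), MTF2 (0.19 ± 0.12), RBBP7 (0.17 ± 0.11), SUZ12 (0.16 ± 0.13) and AEBP2 (0.07 ± 0.10) had adjusted p from 0.186 to 0.591. Replicates of EED, RBBP7 and SUZ12 overlapped, and those of MTF2 and AEBP2 did not. Without DMSO replicate 1, 6 members were called, all higher, against 57.3% of 13776 genes called in either direction and 27.6% called higher in that fit: to the 3 above were added EZH1 (0.28, adjusted p = 0.00588), EED (0.39, adjusted p = 0.00852) and RBBP7 (0.26, adjusted p = 0.009). In the same fit PHF19 stood at 0.70, JARID2 at 0.37 and RBBP4 at 0.24 (adjusted p = 2.42e-05, 0.0016 and 0.00695). EZH2 (-0.04), SUZ12 (0.02), MTF2 (0.07) and AEBP2 (0.05) did not pass the test, with adjusted p from 0.359 to 0.762.

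**Figure D2:**
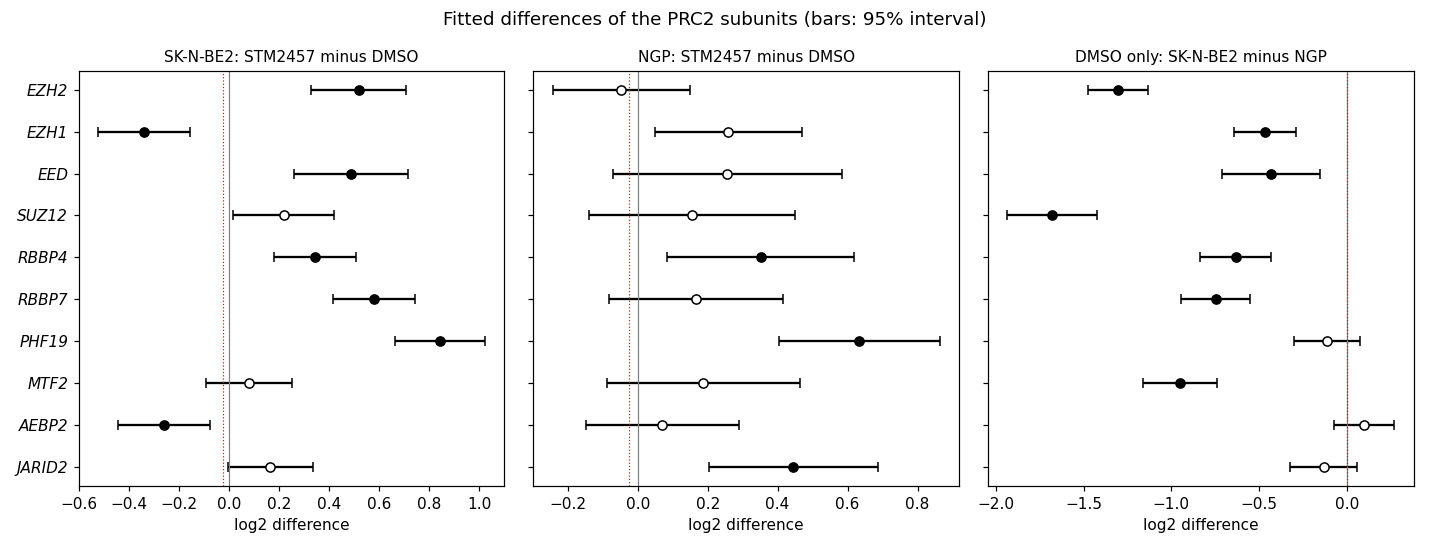
Fitted log2 differences of the 10 subunits with 95% intervals, on separate horizontal axes: STM2457 minus DMSO for each line, then SK-N-BE2 minus NGP in the controls. Filled points passed an adjusted p of 0.05, open points did not, the grey line is 0 and the dotted red line the median of all genes tested. PHF19 lies at 0.84 and 0.63 in the 2 lines, and EZH2 at 0.52 and -0.05.

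Across the lines, 2 members (PHF19 and RBBP4) were called higher in both, 5 were called in SK-N-BE2 alone (EZH1, EZH2, EED, RBBP7 and AEBP2), 1 in NGP alone (JARID2) and 2 in neither (SUZ12 and MTF2). Whether responses differed was tested as a contrast over all 12 libraries, SK-N-BE2 minus NGP. It called 4 of 10 members, 2 higher (EZH2 and RBBP7) and 2 lower (EZH1 and AEBP2), against 17.0% of 14731 genes called higher, 13.9% called lower and 30.9% called in either direction. The catalytic paralogs differed in opposite directions, EZH2 by 0.58 ± 0.11 (adjusted p = 0.00139) and EZH1 by -0.59 ± 0.12 (adjusted p = 0.00173). Both calls held under all 19 alternatives run. RBBP7 responded more in SK-N-BE2, by 0.42 ± 0.13 (adjusted p = 0.0213), a call lost without SK-N-BE2 DMSO replicate 3, SK-N-BE2 STM2457 replicate 2 or NGP STM2457 replicate 2 (adjusted p = 0.0644, 0.0539 and 0.0508). AEBP2 differed by -0.32 ± 0.11 (adjusted p = 0.0461), just inside the threshold, and lost the call in 12 of 19 alternatives. Of these, 10 left out 1 library, any but SK-N-BE2 DMSO replicate 2 and NGP DMSO replicate 1, with an adjusted p from 0.0511 to 0.101. PHF19 (0.22, 95% interval -0.04 to 0.49), JARID2 (-0.27, -0.54 to 0.00227), EED (0.25, -0.15 to 0.64), MTF2 (-0.10, -0.39 to 0.20), SUZ12 (0.07, -0.28 to 0.43) and RBBP4 (0.00490, -0.28 to 0.29) did not pass the test. Without NGP DMSO replicate 1 the same 4 members were called, EZH2 at 0.55, EZH1 at -0.63, RBBP7 at 0.31 and AEBP2 at -0.32, against 42.0% of 14943 genes.

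The balance between alternative subunits can be read from levels per length, CPM divided by exon length in kilobases. EZH2 made up 51.7 ± 2.75% of the summed EZH2 and EZH1 level in SK-N-BE2 with DMSO (mean ± SD, n = 3) and 65.9 ± 1.31% with STM2457. In NGP the same share was 65.7 ± 0.801% with DMSO and 60.7 ± 0.953% with STM2457. The share was thus higher with STM2457 in one line and lower in the other, and in neither line did the replicates of the groups overlap. The Polycomb-like pair PHF19 and MTF2 made up 48.3 ± 0.135% of the 4 accessory subunits in SK-N-BE2 with DMSO and 55.8 ± 0.362% with STM2457, also without overlap. In NGP that share was 57.9 ± 0.906% and 57.8 ± 1.55%, with overlapping replicates. RBBP4 made up 58.7 ± 0.904% of RBBP4 plus RBBP7 in SK-N-BE2 with DMSO and 54.8 ± 1.07% with STM2457, and 56.7 ± 6.36% and 59.9 ± 1.14% in NGP, where DMSO replicate 1 stood at 49.4%. Without that replicate the NGP DMSO means were 60.3% for RBBP4, 65.9% for EZH2 and 57.9% for the Polycomb-like pair. These shares are descriptions with no test.

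**Figure D3:**
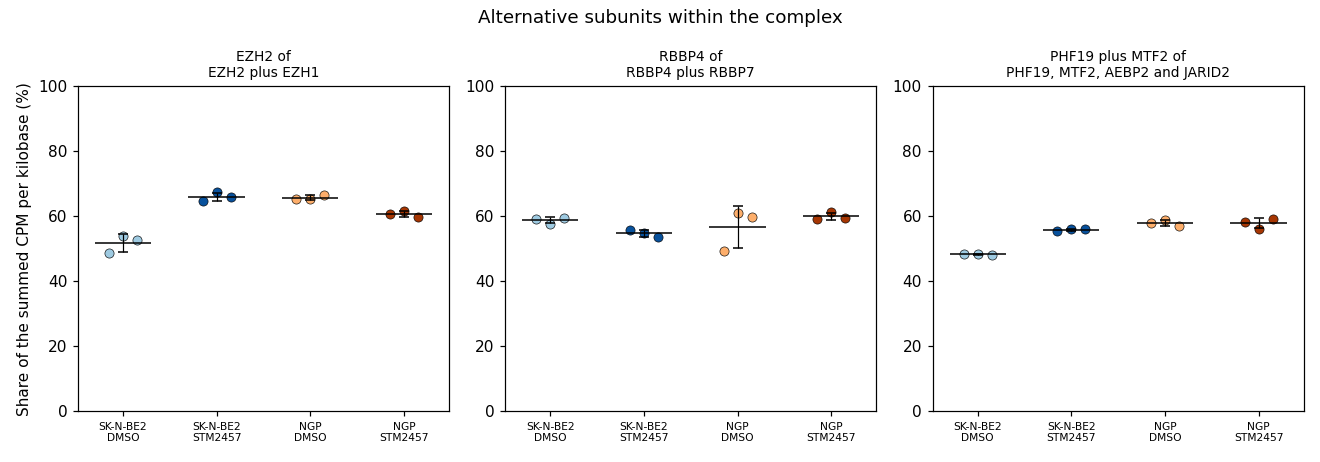
Share of alternative subunits in the summed level per length, in percent, for each library: EZH2 against EZH1, RBBP4 against RBBP7, and PHF19 plus MTF2 among the 4 accessory subunits. Points are replicates, lines the group mean and bars 1 SD. The EZH2 share is 51.7% and then 65.9% in SK-N-BE2, and 65.7% and then 60.7% in NGP.

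The order of the members within a group depended on the length used. With all exons of the count files, RBBP4 led in each group, from 17.6 ± 0.420 CPM per kilobase in SK-N-BE2 with DMSO to 35.4 ± 0.688 in NGP with STM2457, and EED was last, at 2.69 ± 0.297 and 4.40 ± 0.290. In SK-N-BE2 with DMSO, RBBP7 (12.3 ± 0.396) and JARID2 (11.5 ± 0.647) came next and overlapped. EZH2, MTF2, EZH1, SUZ12 and PHF19 followed between 8.47 and 7.05 CPM per kilobase, each overlapping its neighbour. With STM2457 PHF19 stood at 12.99 ± 0.555 CPM per kilobase, overlapping JARID2 (13.2 ± 0.405) and EZH2 (12.5 ± 0.761), while EZH1 stood at 6.42 ± 0.235, apart from both neighbours. In NGP with DMSO the upper neighbours RBBP4 (27.3 ± 3.83), SUZ12 (24.3 ± 3.94), EZH2 (20.9 ± 0.302) and RBBP7 (20.7 ± 2.62) overlapped, and SUZ12 ranked second there with either treatment. Divided instead by the length of the MANE Select transcript, which for EED is 2088 in place of 6807 bases and for RBBP7 2281 in place of 7392 bases, RBBP7 led in each group and AEBP2 was last. With those lengths RBBP4 was the smaller of the pair, at 34.5% (DMSO) and 31.0% (STM2457) for SK-N-BE2, then 32.9% and 35.7% for NGP. The EZH2 share kept its directions, 54.7% and then 68.6% for SK-N-BE2, 68.4% and then 63.6% for NGP. The share of the pair PHF19 and MTF2 became 56.7% and then 64.3% for SK-N-BE2, 65.7% and then 65.9% for NGP. Whether that pair held the larger part in SK-N-BE2 with DMSO thus depended on the length used.

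Among 9788 genes averaging 10 CPM or more, those with the pattern most like EZH2 over the 12 libraries were FAM200B, SEC61A2, PDE7A, LBH and CCDC138. Likeness is the root mean square difference of centred log2 CPM, which was 0.0726 for FAM200B and 0.111 for CCDC138. FAM200B, which shares 12.2% of its exon length with another gene, had means of 16.9 (DMSO) and 25.8 CPM (STM2457) in SK-N-BE2, and of 45.0 and 43.0 CPM in NGP. Those most like EZH1 were ISG20L2, ZNF589, PTPN12, CREB3L4 and FAM234B, from 0.0968 to 0.116. The nearest member to either paralog was MTF2, at 0.211 from EZH2 and 0.221 from EZH1, and EZH2 and EZH1 were 0.354 apart.

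Promoters are shown for the paralogs with opposite responses in SK-N-BE2 and for PHF19. PHF19 was called higher in both lines, as was RBBP4, whose promoter is not shown. Each runs from 250 bases before to 50 bases after a transcription start in RefSeq (GRCh38.p14), 5′ to 3′ on the strand of the gene. Capitals mark a match to the E2F motif, searched on both strands as TTTGGCGC, TTTCCCGC, TTTCGCGC and TTTGCCGC. The windows are chr7:148884242-148884541 (minus strand) for EZH2, chr17:42744991-42745290 (minus strand) for EZH1 and chr9:120877139-120877438 (minus strand) for PHF19.
EZH2: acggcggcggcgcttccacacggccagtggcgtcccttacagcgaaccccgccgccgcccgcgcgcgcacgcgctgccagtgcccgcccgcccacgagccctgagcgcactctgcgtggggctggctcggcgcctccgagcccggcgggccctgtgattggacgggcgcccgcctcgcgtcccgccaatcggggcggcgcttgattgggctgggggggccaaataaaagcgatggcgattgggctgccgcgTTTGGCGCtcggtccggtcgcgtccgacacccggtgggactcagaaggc
EZH1: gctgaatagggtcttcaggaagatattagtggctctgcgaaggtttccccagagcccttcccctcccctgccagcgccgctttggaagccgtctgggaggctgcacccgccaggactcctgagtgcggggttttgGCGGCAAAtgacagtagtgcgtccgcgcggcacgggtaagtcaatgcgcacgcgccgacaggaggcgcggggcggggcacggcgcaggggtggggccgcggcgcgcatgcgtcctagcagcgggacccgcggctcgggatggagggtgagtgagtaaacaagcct
PHF19: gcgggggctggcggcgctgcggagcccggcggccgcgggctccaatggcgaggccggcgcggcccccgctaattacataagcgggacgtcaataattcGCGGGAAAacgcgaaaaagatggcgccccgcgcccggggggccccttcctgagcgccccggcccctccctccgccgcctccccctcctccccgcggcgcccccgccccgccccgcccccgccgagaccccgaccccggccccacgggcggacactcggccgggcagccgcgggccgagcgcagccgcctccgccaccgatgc
The match began at base 2 after the start in EZH2 (TTTGGCGC), 115 bases before it in EZH1 (GCGGCAAA, the other strand) and 152 bases before it in PHF19 (GCGGGAAA, the other strand). EZH2 and PHF19 each have another start in RefSeq whose window held no such match. The motif was found in 6 of 10 members (also SUZ12, MTF2 and AEBP2), against 5.46% of 15084 genes with a promoter in the table. RBBP4, RBBP7, EED and JARID2 held no match, although the first 3 were called higher in SK-N-BE2. By window it was in 6 of 15, against 4.12% of 21270. CCAAT, searched on both strands, was in 7 of 10 members, against 42.5% of genes, and CACGTG, the E-box bound by MYCN and MAX, in 1 of 10 (RBBP4), against 11.0%. A match is a description and not evidence of binding.

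METTL3 methylates adenosines mostly within the DRACH consensus, of which GGACT is a frequent form. In the MANE Select transcripts EZH1 held 7 such motifs (1.51 per kilobase), PHF19 6 (1.45), EZH2 3 (1.13), RBBP7 2 (0.877), RBBP4 6 (0.761), AEBP2 4 (0.686), JARID2 4 (0.666) and MTF2 2 (0.491). EED and SUZ12 held 0. The median of 19061 transcripts was 0.924 per kilobase and 88.5% held at least 1. Methylation of these sites was not measured in these libraries.

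Other proteins of the Polycomb system were read from lists, described by counts and medians beside those of all genes given above. Of 3 further PRC2-associated proteins tested (PHF1, LCOR and LCORL), 1 was lower and 0 higher in SK-N-BE2 and 0 changed in NGP, with the same counts at an unadjusted p under 0.05 and by DESeq2. LCOR fell in SK-N-BE2 from 86.4 to 63.7 CPM (-0.48 ± 0.09, adjusted p = 0.000421) and stood at 73.4 and 70.7 CPM in NGP, where it was called lower without DMSO replicate 1 (-0.24, adjusted p = 0.0378). Exons were summed by gene name, so different transcripts of LCOR cannot be told apart. EPOP and the PRC2 inhibitor EZHIP were too low to be tested.

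PRC1, the partner complex that ubiquitinates H2A, did not move as one group. Of 27 subunits 5 rose and 6 fell in SK-N-BE2 (median -0.0492), and 6 rose and 9 fell in NGP (median -0.185), or 8 and 13 without DMSO replicate 1. PHC2, which polymerises PRC1, rose from 83.6 to 143 CPM in SK-N-BE2 and fell from 166 to 116 CPM in NGP, a difference of 1.28 ± 0.14 (adjusted p = 1.63e-05). AUTS2, of a PRC1 form tied to neuronal gene activation, fell in NGP from 344 to 171 CPM (-1.03 ± 0.10, adjusted p = 0.000119) and stood at 66.8 and 70.3 CPM in SK-N-BE2. PCGF6 fell in both lines (-0.70 ± 0.11 in SK-N-BE2, adjusted p = 0.000105, and -0.33 ± 0.10 in NGP, adjusted p = 0.0291). PCGF3, which shares 21.5% of its exon length with other genes, rose in both (0.48 ± 0.09, adjusted p = 0.000754, and 0.89 ± 0.09, adjusted p = 2e-04).

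The enzymes that remove or compete with the PRC2 mark showed falls of both H3K27 demethylases in NGP. Of the 4 genes listed, 1 fell in SK-N-BE2 and 2 fell in NGP. In either line 0 rose, also at an unadjusted p under 0.05 and by DESeq2. KDM6B fell in SK-N-BE2 from 111 to 87.9 CPM (-0.38 ± 0.13, adjusted p = 0.0269) and in NGP from 231 to 81.3 CPM (-1.53 ± 0.13, adjusted p = 5.6e-05). The fall was larger in NGP, by 1.17 ± 0.21 (adjusted p = 0.000868). The call of KDM6B in SK-N-BE2 was lost without DMSO replicate 1 or 3 (adjusted p = 0.0682 and 0.154) or STM2457 replicate 2 or 3 (adjusted p = 0.0946 and 0.0817) and in a joint fit of all 12 libraries (adjusted p = 0.0751), and its value moved to -0.23 without DMSO replicate 3. KDM6A fell in NGP from 38.5 to 26.7 CPM (-0.55 ± 0.18, adjusted p = 0.0351), a call lost when any NGP library except DMSO replicate 1 was left out (adjusted p from 0.0785 to 0.127) and with the replicate block (adjusted p = 0.0553). The acetyltransferases EP300 and CREBBP did not pass the test in either line. Without NGP DMSO replicate 1 all 4 genes were called lower in NGP, KDM6A at -0.74, EP300 at -0.35 and CREBBP at -0.32 (adjusted p = 0.000106, 0.00431 and 0.00676).

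Of 10 genes of the H2A deubiquitinase PR-DUB, which opposes PRC1, 9 were tested in SK-N-BE2 (3 higher, 2 lower, median 0.0398) and 10 in NGP (4 higher, 3 lower, median -0.0533, and 4 higher, 6 lower without DMSO replicate 1). HCFC1 rose in both lines, in SK-N-BE2 from 108 to 201 CPM and in NGP from 121 to 235 CPM (0.85 ± 0.09 and 0.94 ± 0.13). Among 14 Trithorax-type and H3K36 methyltransferases 2 rose and 3 fell in SK-N-BE2, and 1 rose and 0 fell in NGP, where 2 were higher and 0 lower at an unadjusted p under 0.05 and DESeq2 called 1 and 0. Without DMSO replicate 1 these counts were 3 higher and 5 lower. NSD2, which writes H3K36me2, a mark that blocks PRC2, rose in SK-N-BE2 from 152 to 255 CPM (0.71 ± 0.08, adjusted p = 7.29e-06), and stood at 168 and 205 CPM in NGP (adjusted p = 0.093).

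RBBP4 and RBBP7 also serve in other chromatin complexes. Of 32 genes of NuRD, SIN3, CAF-1, HAT1, MuvB and NURF, 11 rose and 8 fell in SK-N-BE2 (median -0.0203), and 4 rose and 3 fell in NGP (median 0.0667), or 11 and 8 without DMSO replicate 1. The CAF-1 subunit CHAF1B, a chaperone of newly made nucleosomes, rose in both lines, in SK-N-BE2 from 14.5 to 28.7 CPM and in NGP from 20.3 to 52.4 CPM. CHAF1A rose in SK-N-BE2 (1.00 ± 0.09, adjusted p = 1.22e-06), as did HAT1 (0.85 ± 0.11, adjusted p = 1.84e-05), the partner of RBBP7 in acetylating new histone H4. In NGP these 2 did not pass the test (0.34 ± 0.16 and 0.12 ± 0.10), and both responses differed between the lines (adjusted p = 0.0161 and 0.00166). Without DMSO replicate 1 both were called higher in NGP, CHAF1A at 0.53 and HAT1 at 0.19 (adjusted p = 0.000559 and 0.0458).

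EZH2 is a known target of E2F factors and rises in cycling cells. Of 13 E2F and RB family genes, 9 rose and 0 fell in SK-N-BE2 (median 0.529), and 3 rose and 2 fell in NGP (median -0.015), or 3 and 4 without DMSO replicate 1. At an unadjusted p under 0.05, and by DESeq2, the counts in SK-N-BE2 were also 9 and 0. E2F1 rose in SK-N-BE2 from 46.0 to 144 CPM (1.61 ± 0.10, adjusted p = 5.93e-08) and stood at 181 and 182 CPM in NGP (-0.01 ± 0.20, adjusted p = 0.968), a difference between lines of 1.64 ± 0.25 (adjusted p = 0.000253). Without NGP DMSO replicate 1 E2F1 stood at 0.27 in NGP (adjusted p = 0.0514). E2F2 rose in both lines, by 1.66 ± 0.09 and 0.29 ± 0.09. E2F7 rose in SK-N-BE2 from 3.64 to 7.64 CPM and in NGP from 14.6 to 39.0 CPM. Of 20 S-phase and proliferation genes, 19 rose and 0 fell in SK-N-BE2 (median 1.21), and 18 rose and 0 fell in NGP (median 0.943). With an unadjusted p under 0.05, 19 were higher and 0 lower in SK-N-BE2 and 18 were higher and 1 lower in NGP, and DESeq2 gave 19 and 0, and 18 and 0. Without DMSO replicate 1 the NGP count was again 18 and 0. UHRF1, a maintenance factor of DNA methylation, rose in SK-N-BE2 from 48.4 to 128 CPM and in NGP from 70.3 to 241 CPM. MKI67, the proliferation marker, rose in SK-N-BE2 from 225 to 423 CPM and in NGP from 109 to 301 CPM. With DMSO these 2 lists were also mostly lower in SK-N-BE2 than in NGP. Of the 13 E2F and RB genes, 11 were called lower and 1 higher (median -0.96). Of the 20 S-phase and proliferation genes, 17 were called lower and 2 higher (median -0.923). In the same comparison 12 of the 27 PRC1 subunits were called lower and 6 higher. Of the 32 genes of other complexes with RBBP4 or RBBP7, 14 were called lower and 4 higher. The part of proliferation in the subunits' values was not tested.

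Genes that PRC2 is known to silence did not move one way with STM2457. Of 4 genes described as repressed by EZH2 in neuroblastoma, 3 were tested in SK-N-BE2, where NGFR rose and CLU fell, and 4 in NGP, where CASZ1 and RUNX3 fell and 0 rose (also 0 at an unadjusted p under 0.05 and by DESeq2). NGFR, the low-affinity neurotrophin receptor, rose in SK-N-BE2 from 12.7 to 39.7 CPM (1.60 ± 0.10, adjusted p = 6.26e-08) and stood at 253 and 205 CPM in NGP (-0.33 ± 0.13, adjusted p = 0.0779). The response of NGFR differed between the lines by 1.94 ± 0.17 (adjusted p = 2.85e-06), and 27.2% of its exon length is shared with other genes. CLU, the chaperone clusterin, fell from 118.8 to 90.9 CPM in SK-N-BE2 (-0.42 ± 0.08, adjusted p = 0.000768) and stood at 18.3 and 22.9 CPM in NGP, where it was called higher without DMSO replicate 1 (0.40, adjusted p = 0.0166). CASZ1, a zinc finger factor of neural differentiation that shares 32.3% of its exon length, fell in NGP from 53.3 to 27.1 CPM (-1.001 ± 0.15, adjusted p = 0.00109) and stood at 24.2 and 21.2 CPM in SK-N-BE2. RUNX3 fell in NGP from 17.6 to 9.54 CPM (-0.91 ± 0.20, adjusted p = 0.00661). With DMSO, 3 of the 4 genes were called lower in SK-N-BE2 than in NGP and 1 higher (median -2.73).

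Of 24 textbook Polycomb targets outside the HOX clusters, 12 were expressed enough to test in SK-N-BE2 (1 higher, 4 lower, median -0.161) and 17 in NGP (2 higher, 4 lower, median -0.152, and 2 higher, 3 lower without DMSO replicate 1). In SK-N-BE2 HAND1 fell from 164 to 94.9 CPM (-0.83 ± 0.12, adjusted p = 7.47e-05). GATA4 fell from 80.7 to 68.4 CPM (-0.28 ± 0.09, adjusted p = 0.0151), a call lost without SK-N-BE2 DMSO replicate 3 or STM2457 replicate 3 (adjusted p = 0.0615 and 0.106). In NGP PAX6 fell from 8.06 to 2.03 CPM and PAX2 from 9.05 to 5.03 CPM (-2.01 ± 0.21 and -0.87 ± 0.16, adjusted p = 0.000174 and 0.00339). NKX2-5 fell there from 18.5 to 10.6 CPM (adjusted p = 0.0258), a call lost without NGP DMSO replicate 3 or STM2457 replicate 1 or 3 (adjusted p = 0.0559, 0.0983 and 0.0921). Between the lines with DMSO 19 targets were tested. Of these, 15 were called lower in SK-N-BE2 than in NGP and 2 higher (median -4.05).

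**Figure D4:**
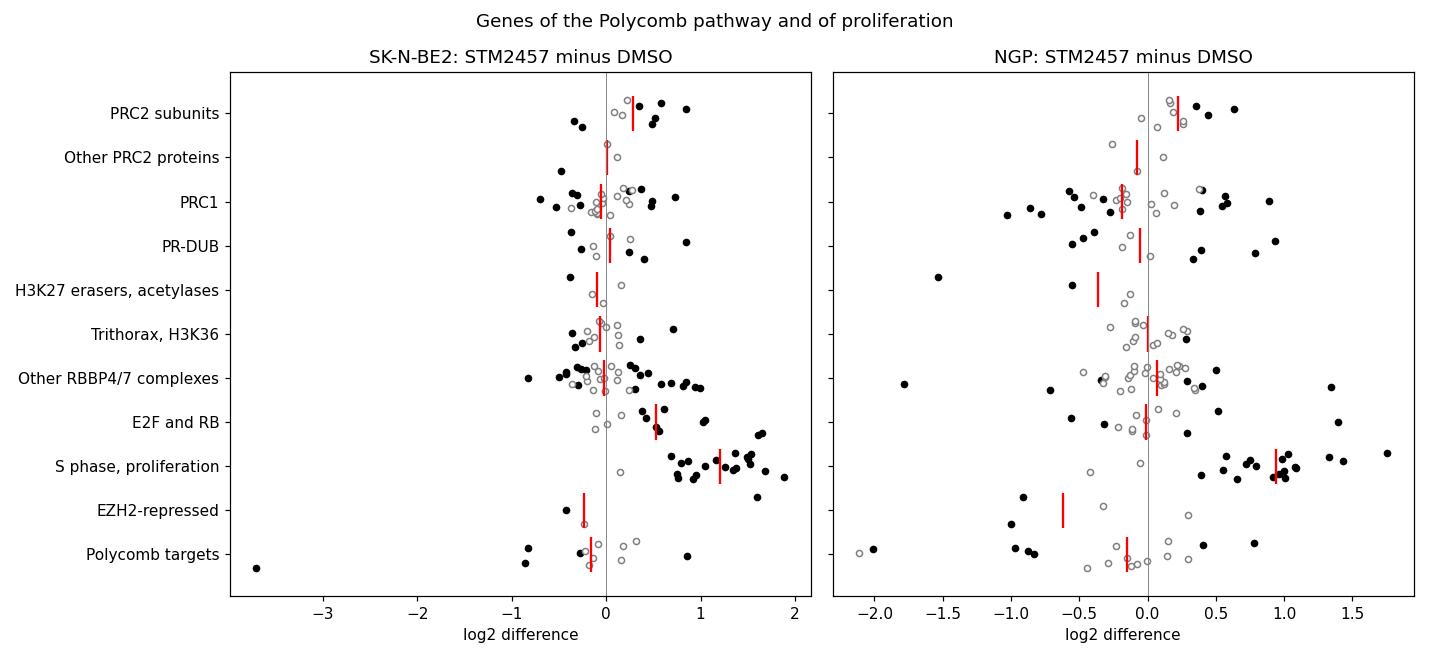
Log2 differences, STM2457 minus DMSO, of the genes tested in each list, in SK-N-BE2 and in NGP. Each point is 1 gene, filled where it passed an adjusted p of 0.05, and red bars mark list medians. The S-phase and proliferation genes have medians of 1.21 and 0.943 and the E2F and RB families of 0.529 and -0.015. A PRC1 gene that counts in the list's median is not drawn.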

How the data were processed

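Polyadenylated RNA of SK-N-BE2 and NGP cells was sequenced in 12 libraries, with groups and replicate numbers taken from the sample titles. The authors deposited raw read counts per gene, without normalization. Per the file headers, these counts came from featureCounts 2.0.5 (paired option, exon features summed by gene name, protein-coding GENCODE genes). Per the submitters' processing notes the tools were FastQC 0.11.5, Trimmomatic 0.36, HISAT2 2.1.0 and Subread 1.5.3, a version of the counter that differs from that in the headers, on GRCh38. No strand option appears in the headers, so reads of genes that overlap on opposite strands cannot be told apart. Of counts between 1 and 20, 72.1% to 75.4% were even, so a fragment can add 2 reads. Exon lengths are those of the deposited files.

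The 6 libraries of a line were fitted separately in edgeR 4.0.16 (R 4.3.3), after filterByExpr at a minimum count of 10 and with TMM factors, by the quasi-likelihood test, Benjamini-Hochberg adjustment over all genes tested and a threshold of 0.05. Differences between lines were contrasts of 4 group means over 12 libraries. Standard errors are the log2 difference divided by the square root of F, and 95% intervals use the t quantile of the fit. CPM are on the TMM scale of all libraries, so all changes are relative. Depth was 47242379 to 58159937 reads per library, so the spread between replicates, not counting, limits the members.

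The members and lists were chosen with earlier results of these data known. Named were the 10 members, METTL3, the 4 genes described as repressed by EZH2, and, for each other list and line, the 3 called genes of at least 5 CPM with the largest change (a few that qualified are left out of the text), plus the 5 genes most like EZH2 and the 5 most like EZH1. Exon overlap, pseudogenes and MANE lengths come from GENCODE 44, promoters from RefSeq. The fits were tested on simulated counts with the same spread for all genes and no library set apart. That spread was below the estimates for NGP (0.155) and for all 12 libraries (0.134). The simulation therefore cannot vouch for the calls in NGP or between the lines. Alternatives were DESeq2 size factors, upper-quartile factors, all genes unfiltered, a minimum mean of 1 CPM, a replicate block, a joint fit, halved counts, DESeq2 1.42.0 and leaving out each library. MANE Select lengths were added after seeing the data. Shares of all genes called are those of the adjusted edgeR test, also where counts at an unadjusted p or by DESeq2 are given.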

Additional observations from a re-analysis of the deposited data

Results flagged for a closer look

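For 4 subunits the response to STM2457 differed between the lines by a test of the difference itself (edgeR quasi-likelihood test over all 12 libraries, Benjamini-Hochberg adjustment, SK-N-BE2 minus NGP). EZH2 differed by 0.578 on the log2 scale (adjusted p = 0.00139), rising in 3 of 3 SK-N-BE2 libraries above all controls and overlapping its controls in NGP. EZH1 differed by -0.587 (adjusted p = 0.00173), with 3 of 3 treated libraries below the controls in SK-N-BE2 and 3 of 3 above them in NGP. RBBP7 differed by 0.424 (adjusted p = 0.0213) and AEBP2 by -0.318 (adjusted p = 0.0461), the last near the threshold. Per the file headers the aligned reads of the lines were kept in different folders, which may or may not stand for sequencing runs. Dose, line and folder differ together in this contrast and cannot be told apart.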

How the results depend on the processing

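Over the 40 fitted differences of the members (10 members in 4 comparisons) and their 660 alternative values, 610 kept direction and side of the threshold, 23 lost the call, 12 gained one and 15 changed sign. The 15 were differences near 0 between the lines' responses. The RBBP4 difference (0.00490) was -0.00907 with DESeq2 size factors within edgeR, -0.0631 with upper-quartile factors, -0.0107 with a mean of at least 1 CPM, -0.00440 with halved counts and -0.00868 with DESeq2, and from -0.0734 to -0.000318 in the 8 leave-one-out fits that reversed it: -0.000318, -0.0232 and -0.0271 without SK-N-BE2 DMSO replicate 1, 2 and 3, -0.00717 and -0.00991 without SK-N-BE2 STM2457 replicate 1 and 2, -0.0340 and -0.0734 without NGP DMSO replicate 2 and 3, and -0.00808 without NGP STM2457 replicate 1. Without NGP DMSO replicate 1 the differences of RBBP4 and SUZ12 were 0.0991 and 0.187, the highest of any library left out. The SUZ12 difference was -0.0284 without SK-N-BE2 DMSO replicate 3 and -0.00406 without NGP DMSO replicate 2.

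Leaving out 1 library moved the number of members called from 7 to between 6 and 9 in SK-N-BE2, from 3 to between 2 and 6 in NGP (6 without DMSO replicate 1), from 4 to between 2 and 4 for the difference between lines (2 without SK-N-BE2 DMSO replicate 3, SK-N-BE2 STM2457 replicate 2 or NGP STM2457 replicate 2) and from 7 to between 6 and 8 between the lines with DMSO. Over all genes the same fits called between 6497 and 7849 (7665 with every library), 3816 and 7897 (5671), 3701 and 6274 (4549), and 9941 and 11072 (10480). The highest counts in the last 3 of these comparisons came without NGP DMSO replicate 1. The cause was not tested. With the replicate block, 7, 2, 3 and 7 members were called, against 7522, 5026, 3997 and 10147 of all genes. Same-numbered DMSO and STM2457 libraries correlated in their deviations from the group mean at -0.175, 0.153 and 0.0186 in SK-N-BE2. In NGP they correlated at 0.000898, -0.217 and 0.111. Deviations from means of 3 libraries cannot decide whether the replicate numbers pair the samples. Levels per length, and so which of RBBP4 and RBBP7 is higher, depend on the transcript length used, and the share of EZH2 does not change direction with it.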
